A study of Mus musculus with 2 samples.

Results

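Many protein-coding genes carry a second promoter far inside the gene, and the DNase I accessibility of such promoters was described here for the newborn mouse stomach. DNase-seq measures where the enzyme DNase I can cut chromatin, and promoters in use lie in such open sites. A second promoter was taken as a shared accessible region within 500 bp of a protein-coding transcript start that lay at least 10 kb downstream of the gene's most 5' protein-coding start, in genes whose protein-coding starts span more than 10 kb. Starts came from GENCODE M21 on build mm10, and a shared region is the union of peaks that overlapped by at least 1 bp between the replicates. By this rule 1799 of 105543 shared regions were second promoters, and they belonged to 1059 genes. Regions at the most 5' starts of all genes with such spaced starts numbered 3818, of which 6 were also second promoters of another gene. A further 16475 lay at other protein-coding starts, 78093 lay within 500 bp of no annotated start, and the rest lay at starts of other transcripts.

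The tissue was whole stomach of B6NCrl mice on postnatal day 0, with 1 group of 2 replicates, so that no conditions were compared. Both libraries carry the same donor in the labels, the sex was not collected, and whether separate animals or pools were used is not stated. The labels of replicate 2 name the HiSeq 2500 and the NextSeq 500 as its instruments. The number of reads is unknown, so depth cannot be weighed, and replicate 1 had 139374 peaks where replicate 2 had 152779. Of the stomach epithelium markers examined, 12 of 13 had a shared region within 500 bp of a protein-coding start, all except Atp4a, against 63.1% of protein-coding genes. The same held for 5 of 6 smooth muscle markers, without Acta2, and 3 of 5 mesenchymal markers, without Foxf1 and Barx1. Among markers of other cell types and organs, 1 of 4 for enteric neurons and glia, 1 of 3 for endothelium, 1 of 4 for blood, 1 of 3 for pancreas and none of 2 each for liver (Alb, Apoa2) and intestine (Cdx1, Cdx2) had one. A bulk tissue cannot tell a site that is open in few cells from a site that is weakly open in many.

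An alternative promoter starts a transcript at a different first exon, which can change the untranslated leader, remove or replace the first part of the protein, or place the gene under other regulatory factors. Genes such as Runx1, Hnf4a, Gnas and Dmd are textbook cases in which the promoters are used in different tissues or stages. Promoters fall broadly into a class rich in CpG dinucleotides, often used in many tissues, and a class poor in them, often used in few.

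The sequences of 9 regions are shown because they carry the main contrasts of the data: second promoters rich and poor in CpG, and genes whose promoters differ in strength. Each is printed 5' to 3' on the strand of its gene from the RefSeq assembly GRCm38.p6 (mm10), limited to the part outside annotated exons, with every CG dinucleotide in capitals. Gata4 and Hnf4a are given at both promoters.
Gata4 second promoter, chr14:63245316-63245485, minus strand: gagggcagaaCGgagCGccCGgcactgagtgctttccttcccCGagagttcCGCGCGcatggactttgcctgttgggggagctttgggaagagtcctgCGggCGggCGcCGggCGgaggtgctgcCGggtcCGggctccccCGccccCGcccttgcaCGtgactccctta
Gata4 most 5' start, chr14:63271693-63271805, minus strand: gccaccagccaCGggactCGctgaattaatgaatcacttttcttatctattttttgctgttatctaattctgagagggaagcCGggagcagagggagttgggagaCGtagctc
Hnf4a second promoter, chr2:163547016-163547185, plus strand: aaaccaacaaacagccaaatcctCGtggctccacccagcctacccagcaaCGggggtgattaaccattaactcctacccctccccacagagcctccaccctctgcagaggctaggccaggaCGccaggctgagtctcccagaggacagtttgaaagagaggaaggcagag
Hnf4a most 5' start, chr2:163506696-163506807, plus strand: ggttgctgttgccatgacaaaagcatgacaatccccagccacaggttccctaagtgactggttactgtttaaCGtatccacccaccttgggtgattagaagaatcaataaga
The next pair are second promoters of genes that had no peak at the most 5' start in either replicate.
Runx1 second promoter, chr16:92697329-92697485, minus strand: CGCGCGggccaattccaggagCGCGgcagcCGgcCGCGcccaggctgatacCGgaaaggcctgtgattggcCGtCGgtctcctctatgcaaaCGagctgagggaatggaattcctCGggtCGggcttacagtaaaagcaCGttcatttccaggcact
Atf3 second promoter, chr1:191183416-191183585, minus strand: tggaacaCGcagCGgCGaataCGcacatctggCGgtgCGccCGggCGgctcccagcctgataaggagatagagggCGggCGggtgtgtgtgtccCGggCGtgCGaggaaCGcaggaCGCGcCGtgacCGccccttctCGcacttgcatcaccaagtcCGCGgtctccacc
The last 3 are strong second promoters of a kinase and of 2 transcription factors.
Sgk1 second promoter, chr10:21994516-21994665, plus strand: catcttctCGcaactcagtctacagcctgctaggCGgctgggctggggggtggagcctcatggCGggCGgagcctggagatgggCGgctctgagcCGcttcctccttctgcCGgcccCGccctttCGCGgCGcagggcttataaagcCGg
Elf1 second promoter, chr14:79515536-79515673, plus strand: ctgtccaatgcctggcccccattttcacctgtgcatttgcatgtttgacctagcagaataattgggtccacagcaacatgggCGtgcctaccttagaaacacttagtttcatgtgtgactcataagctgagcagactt
Creb5 second promoter, chr6:53573216-53573299, plus strand: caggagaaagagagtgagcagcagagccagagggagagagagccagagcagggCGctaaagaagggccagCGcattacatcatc
The stretch of Gata4, which encodes a zinc-finger factor of endoderm and heart, held 17 CG dinucleotides in 170 bp at the second promoter and 4 in 113 bp at the most 5' start. Both Hnf4a stretches were poor in CpG, with 3 CG in 170 bp at the second promoter and 1 in 112 bp at the most 5' start. Atf3 had 21 CG in 170 bp, Runx1 15 in 157 bp and Sgk1 12 in 150 bp, whereas Creb5 had 2 in 84 bp and Elf1 1 in 138 bp. The Sgk1 stretch held TATAAA and GGGCGG, the stretch of Elf1 held the AP-1 string TGANTCA and CCAAT, and the most 5' stretch of Gata4 held TGANTCA and the GATA string AGATAA. These are matches of letters on either strand and do not show that a factor was bound.

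Downstream starts were open less often than the most 5' starts of the same genes. Among 7852 downstream starts of 3761 genes, 2230 had a shared region within 500 bp, or 28.4% (95% Wilson interval 27.4 to 29.4%). At the most 5' starts the count was 2612 of 3761, or 69.4% (68.0 to 70.9%), and at the most 5' starts of all other protein-coding genes 10283 of 18092, or 56.8% (56.1 to 57.6%). Over all 54361 annotated protein-coding starts the share was 57.7%. In replicate 1 alone 31.0% of downstream starts and 71.4% of most 5' starts had a peak, and in replicate 2 alone 31.9% of downstream starts and 73.3% of most 5' starts did. The gap between the classes was therefore far larger than the gap between the replicates. These intervals cover counting error only, and starts of 1 gene often share a region. Starts of other genes nearby were looked for at downstream starts only, so the classes are not matched for them. The classes also differ in annotation, with an incomplete 5' end at 2660 downstream starts and at 19 most 5' starts. Among starts with a complete 5' end, 39.3% of 5192 downstream starts and 69.6% of 3742 most 5' starts were open.

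The regions were centred close to the annotated starts. At downstream starts whose transcript has a complete 5' end, 25.6% had the centre of a shared region in the 250 bp just upstream of the start, against 1.54 to 2.12% in the 16 bins that lie 3 to 5 kb away on either side. At downstream starts annotated with an incomplete 5' end the corresponding values were 2.59% and 0.865 to 1.80%, a small difference. At the most 5' starts they were 47.1% and 1.41 to 2.34%. The 1799 second promoter regions lie within 500 bp of a start by the rule, so their own closeness to it is no separate evidence. Of these regions 42.1% overlapped their start and 60.6% had their centre upstream of it, with a median offset of -31 bp.

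**Figure D1:**
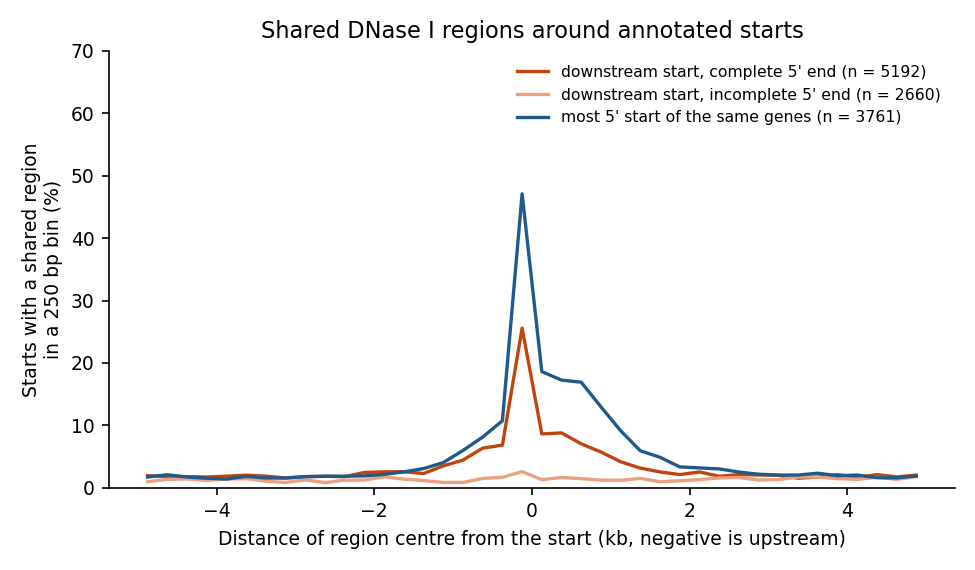
Share of annotated starts (%, vertical axis) with the centre of a shared region in each 250 bp bin, against distance from the start in kb (negative is upstream). Lines show 5192 downstream starts with a complete 5' end, 2660 downstream starts with an incomplete 5' end and 3761 most 5' starts; the peak just upstream reaches 25.6% for complete downstream starts, 2.59% for incomplete ones and 47.1% for most 5' starts.

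Openness of a downstream start went with how its transcript is annotated. GENCODE marks transcripts whose true 5' end was not found, and 188 of 2660 downstream starts so marked were open, or 7.07% (6.15 to 8.10%), against 2042 of 5192 with a complete 5' end, or 39.3% (38.0 to 40.7%). By transcript support level the shares were 39.1% at level 1, 27.7% at level 2, 19.7% at level 3, 24.0% at level 5 and 20.9% where none is given. Starts inside an intron of other transcripts of the gene were open in 1958 of 4464 cases, or 43.9%. Starts in an untranslated exon were open in 19.9% of 428 cases, and starts within a coding exon in 6.17% of 2935. Among starts with a complete 5' end the shares were 44.6% in introns and 8.26% in coding exons, so the difference by location was not confined to incomplete transcripts. Over all downstream starts the share showed no steady change with distance: it was 26.1% at 10 to 20 kb, 30.3% at 20 to 50 kb, 28.0% at 50 to 100 kb, 28.6% at 100 to 200 kb and 28.9% beyond 200 kb. Among starts with a complete 5' end it was lowest at 10 to 20 kb, at 33.5% (31.1 to 36.0%). In the farther classes it was 42.4% (40.0 to 44.7%), 39.3%, 44.3% and 39.9%.

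**Figure D2:**
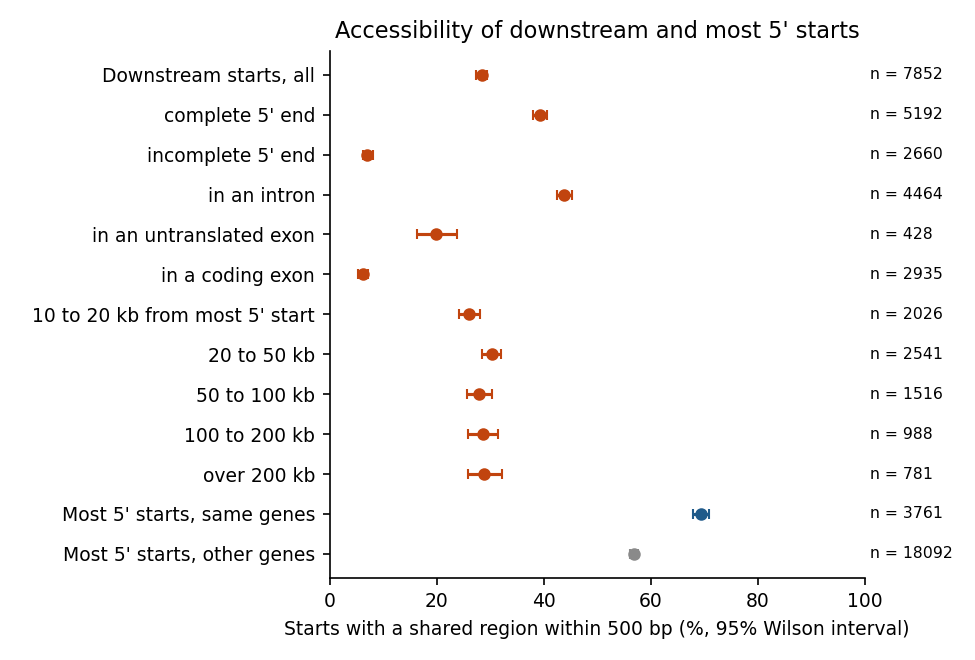
Share of starts with a shared region within 500 bp (%, horizontal axis, bars are 95% Wilson intervals), with downstream starts split by 5' end, location and distance above the most 5' starts of the same genes (69.4%) and of other genes (56.8%). Downstream starts in introns (43.9%) and with a complete 5' end (39.3%) lie above those in coding exons (6.17%) and with an incomplete 5' end (7.07%), and the 5 distance classes lie between 26.1 and 30.3%.

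A start of another gene close by also went with openness. Of downstream starts with another protein-coding gene's start within 1 kb, 95 of 127 were open, or 74.8%, and of those with only a non-coding gene's start within 1 kb 50.5% were. Of the 7337 with no other gene's start that near, 26.4% were open. Of the 1799 regions, 69 lay at a start shared in this way with a protein-coding gene and 144 with a non-coding gene, and 1586, or 88.2%, lay at starts of their own gene alone. For the 69 the region cannot be assigned to either gene. Most 5' starts were not split in this way, so their regions may also lie at other genes' starts. Comparisons of second promoters with most 5' starts, in share or in rank, are not corrected for this.

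An open second promoter was found in 1059 of 3761 genes, or 28.2% (26.7 to 29.6%), with a peak in 31.0% of the genes in replicate 1 and 31.9% in replicate 2. Both the second promoter and the most 5' start were open in 690 genes, or 18.3%. In 369 genes, or 9.81% (8.90 to 10.8%), a second promoter was open and the most 5' start was not, in 1922 genes (51.1%) only the most 5' start was open, and in 780 (20.7%) neither was. In 308 of the 369 genes neither replicate had a peak within 500 bp of the most 5' start, and in 330 no start within 10 kb of the most 5' one had a shared region. A second promoter was open in 32.1% (29.5 to 34.9%) of the genes that were not open at the most 5' start and in 26.4% (24.8 to 28.1%) of those that were. The share grew with the number of downstream starts a gene has, at 15.0% with 1, 31.2% with 2, 45.7% with 3 or 4 and 74.1% with 5 or more. A rise follows from the definition, since a gene counts as open when any of its downstream starts is open. Of the open genes 608 had 1 second promoter region, 288 had 2, 99 had 3, 51 had 4 or 5 and 13 had 6 or more.

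Genes with well-known alternative promoters were examined by name, and since they were picked for being known to have them, their share is no independent evidence. Of 38 listed, 28 had starts far enough apart, and 22 of these had an open second promoter, 12 together with the most 5' start and 10 without it. In 5 of the 12 the second promoter had the higher mean rank. By start, 70 of their 152 downstream starts were open, or 46.1%, against 28.4% over all downstream starts. Among starts with a complete 5' end the share was 51.1%, against 39.3% of all such starts. Values below are the deposited peak signal, a whole number without a stated unit that serves only to rank peaks within a replicate, in which the median of all peaks was 44 in replicate 1 and 52 in replicate 2. Where a gene had several second promoter regions, the strongest is given.

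Among transcription factor genes, the proximal promoter of Runx1, a Runt-domain factor of blood development, had signals of 106 and 111 in replicates 1 and 2 at 128821 bp from the most 5' start, which had no peak in either. Nr3c1, the glucocorticoid receptor gene, reached 108 and 120 at its strongest of 5 second promoter regions, with no peak at the most 5' start. Tcf4, a basic helix-loop-helix factor gene with 25 downstream starts, reached 77 and 96, and Rarb, a retinoic acid receptor gene, 66 and 83, again with no peak at the most 5' start. None of these 4 genes had a peak at the most 5' start in either replicate, although Tcf4 had a shared region at another start within 10 kb of it. Hnf4a, a nuclear receptor gene of endodermal epithelia, showed the opposite order, with 26 and 47 at the second promoter (P1), 40379 bp downstream, and 96 and 98 at the most 5' start (P2). Tcf7l2, a Wnt pathway effector gene, had 52 and 61 at its second promoter and 105 and 118 at the most 5' start. Mitf, a factor of melanocytes and other lineages, had 51 and 47 at a start 122747 bp downstream and 85 and 113 at the most 5' start, and its starts 184740 and 184869 bp downstream had no peak. Pparg, the adipocyte regulator gene, had 36 and 42 at the second promoter and 64 and 75 at the most 5' start. In these 4 genes the most 5' start was the stronger in both replicates. Runx2 had 51 and 64 at the second promoter and 46 and 44 at the most 5' start, and Ppargc1a, a coactivator gene of energy metabolism, 81 and 70 at the second promoter and 76 and 85 at the most 5' start. Replicates ordered the Ppargc1a promoters in opposite ways. Trp73 had 42 and 60 at a start 23603 bp downstream, and its most 5' start had a peak in replicate 2 only.

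Genes of the cytoskeleton and the nuclear envelope in the same list ranged from 1 to 9 second promoter regions. Plec, whose plectin links intermediate filaments to junctions, had 9 second promoter regions, the strongest at 105 and 111, against 82 and 95 at the most 5' start. Dst, a spectraplakin gene, reached 86 and 90 at a second promoter and 60 and 65 at the most 5' start. Its relative Macf1 had 89 and 89 at the strongest of 6 regions, with no peak at the most 5' start. Lmna, the lamin A/C gene, had 114 and 117 at the second promoter and 110 and 124 at the most 5' start, and was thus strongly open at both. Ank1, an ankyrin gene, had 77 and 82 at a region in a coding exon whose only starts have an incomplete 5' end, and 42 and 38 at the most 5' start. Dmd, the dystrophin gene, was open 2099510 bp downstream of its most 5' start, at 57 and 63, while the most 5' start had a peak in replicate 2 only. The Dmd start is the one of the short product that many tissues make.

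Among signalling genes, Gnas, an imprinted locus that encodes the stimulatory G protein alpha subunit, was open at all 6 downstream starts, with 80 and 89 at the strongest of 6 regions and 34 and 41 at the most 5' start. Pde4d, a cyclic AMP phosphodiesterase gene, had 8 regions, the strongest at 96 and 104 at starts with an incomplete 5' end only, and its most 5' start had a peak in each replicate that did not overlap the other. Nrg1, the neuregulin ligand gene, had 62 and 77 at a region 874578 bp downstream, and Bdnf, a neurotrophin gene, 58 and 75, with no peak at the most 5' start of either. Bdnf did have a shared region at another start within 10 kb of its most 5' one. Ptk2, the focal adhesion kinase gene, had 53 and 57 at the second promoter and 88 and 108 at the most 5' start. The 6 listed genes without an open second promoter were split evenly: Cdkn2a, Esr1 and Mecom were open at the most 5' start alone, and Mylk, Runx3 and Trp63 at neither. Of these, Esr1 and Mylk had a peak at a second promoter in replicate 2 only, and Mylk also had one at the most 5' start in replicate 2 only. The strongest second regions of Runx2, Rarb and Nrg1 also lie within 1 kb of a non-coding gene's start.

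**Figure D3:**
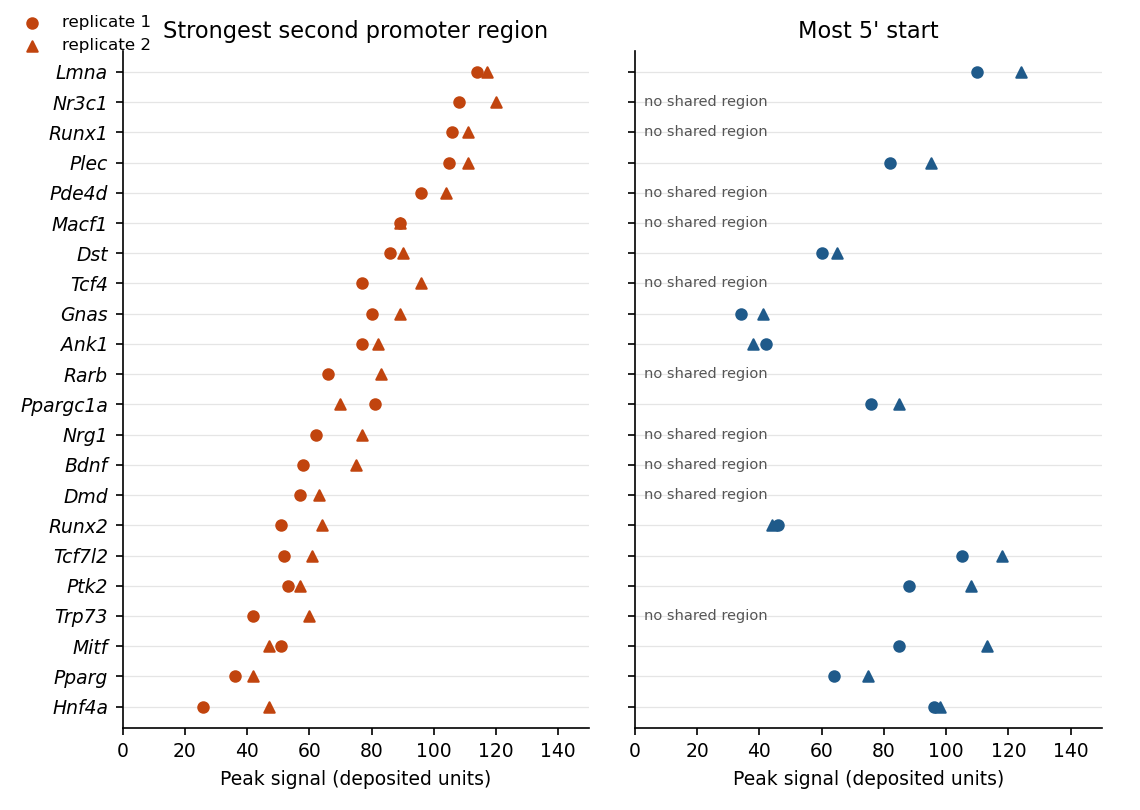
Deposited peak signal (horizontal axis, no unit) at the strongest second promoter region (left) and at the most 5' start (right) of the 22 genes with known alternative promoters that had an open second promoter, with circles for replicate 1 and triangles for replicate 2. Genes run from Lmna (114 and 117 at the second promoter) to Hnf4a (26 and 47), and 10 genes have no shared region at the most 5' start.

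Other gene families were counted in lists by gene and, because genes differ in how many downstream starts they have, also by start. The genes named are those with the highest ranks at the second promoter, which favours a stronger second promoter among them, so the count over the whole list is given too. In the cytoskeleton and adhesion list 26 of 45 genes (57.8%, against 28.2% of all genes) and 92 of 241 downstream starts (38.2%, against 28.4% of all) were open. Among starts with a complete 5' end the share was 53.9%, against 39.3% of all such starts. Palld, whose palladin organises actin, had 101 and 109 with no peak at the most 5' start. Lmo7, an adherens junction gene, had 102 and 99 at the second promoter and 38 and 57 at the most 5' start. Ablim1, an actin-binding protein gene, was open at 10 of 12 downstream starts, with 90 and 107 at the strongest region and 62 and 80 at the most 5' start. Myo10, an unconventional myosin gene of filopodia, had 87 and 101 at the second promoter and 103 and 108 at the most 5' start. Lama3, a laminin chain gene of epithelial basement membranes, had 81 and 105 at the second promoter and 60 and 77 at the most 5' start. Epb41, a membrane skeleton gene, had 101 and 104 at the second promoter and 115 and 114 at the most 5' start. In both replicates Palld, Lmo7, Ablim1 and Lama3 were stronger at the second promoter or open there alone, and Epb41 and Myo10 were stronger at the most 5' start. The second regions of Lama3 and Epb41 also lie within 1 kb of a non-coding gene's start. Of the 22 genes of the list open at both, 10 had the higher mean rank at the second promoter, against 280 of 690 over all genes. The median CpG ratio of the strongest regions was 0.363 in this list, against 0.529 over all genes. It was lower still, at 0.338, for the cyclic nucleotide and kinase signalling genes described below. In the remaining lists it ran from 0.619 to 0.713.

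Transcription factors had an open second promoter in 24 of 49 genes (49.0%, against 28.2% of all genes), with 64 of 164 downstream starts open (39.0%, against 28.4% of all). The gap was smaller among starts with a complete 5' end, at 45.0% against 39.3% of all such starts. Of the 18 genes open at both, 8 had the higher mean rank at the second promoter. Creb5, a basic leucine zipper factor gene, had 110 and 116 at the second promoter and 69 and 85 at the most 5' start. Gata4 had 110 and 115 at the second promoter, 26421 bp downstream, and 92 and 103 at the most 5' start. Elf1, an ETS factor gene, had 99 and 118 at the second promoter and 80 and 87 at the most 5' start. In these 3 genes, named for their high second promoter, it was the stronger in both replicates. Nfib had 101 and 113 with no peak at the most 5' start. Crem, a cyclic AMP response gene, had 101 and 110 at the second promoter and 98 and 114 at the most 5' start, so that the replicates differed in order. Camta1, a calmodulin-binding activator gene, had 104 and 104 at the second promoter and 125 and 131 at the most 5' start.

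For cyclic nucleotide and kinase signalling 14 of 23 genes (60.9%, against 28.2% of all genes) and 30 of 103 downstream starts (29.1%, against 28.4% of all) were open, and 3 of the 9 genes open at both had the higher mean rank at the second promoter. Sgk1, a serum and glucocorticoid inducible kinase gene, had 96 and 109 at 112482 bp from its most 5' start, which had a peak in replicate 1 only. Mast4, a kinase gene, had 89 and 106 at the second promoter and 79 and 79 at the most 5' start. Mark2, a polarity kinase gene, had 97 and 97 at the second promoter and 127 and 124 at the most 5' start. Kalrn, which encodes an exchange factor with a kinase domain, had 92 and 96 at a start 418058 bp downstream, with no peak at the most 5' start. The 4 genes thus covered each arrangement, with the second promoter stronger, weaker or open alone. Among ligands and receptors 7 of 23 genes (30.4%) and 13 of 49 downstream starts (26.5%) were open, both near the shares of all genes and starts, and 4 of the 5 genes open at both had the higher mean rank at the second promoter. Fgfr2, a fibroblast growth factor receptor gene, had 86 and 107 at a start annotated 2857087 bp downstream of the most 5' one, which had 85 and 101. Whether that most 5' start lies near a start of another gene was not examined, so its region is not shown to belong to Fgfr2. Fgf1, a fibroblast growth factor gene, had 76 and 95, and Robo1, an axon guidance receptor gene, 82 and 87, with no peak at the most 5' start of either. Among ion channels and transporters 8 of 20 genes (40.0%, against 28.2% of all genes) and 14 of 70 downstream starts were open, a share by start below that of all downstream starts, and 2 of the 4 genes open at both had the higher mean rank at the second promoter. Slc39a11, a zinc transporter gene, had 91 and 102 at the second promoter and 75 and 75 at the most 5' start. Ano1, the chloride channel gene of interstitial cells of Cajal, had 67 and 77 at a start in a coding exon with an incomplete 5' end and 60 and 69 at the most 5' start. Among starts with a complete 5' end, of which 39.3% were open over all genes, the share was 37.1% for cyclic nucleotide and kinase signalling. It was 37.5% for ligands and receptors and 21.4% for ion channels and transporters. No list was tested against another.

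The strongest second promoters of all genes were near the top of each replicate's peaks. Samd4b, an RNA-binding protein gene, led with 130 and 130 at the second promoter and 118 and 125 at the most 5' start. Srrm2, a nuclear speckle protein gene, had 131 and 126 at the second promoter and 54 and 56 at the most 5' start. Fbxo46, an F-box gene, had 124 and 133 at the second promoter and 122 and 124 at the most 5' start. The others of the top 10 with no other gene's start within 1 kb were Ssc4d, Aktip, Kat6b, Iffo2, Dnajb4, Rangap1 and Por, each with 118 or more in replicate 1 and 124 or more in replicate 2. All of these 10 regions lay above the 99th percentile of peak signal in both replicates.

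Of genes with no peak at the most 5' start in either replicate, the highest ranks belonged to Ssc4d (126 and 132), Aktip (122 and 129), Kat6b (120 and 133) and Iffo2 (121 and 129). Ssc4d did have a shared region at another start within 10 kb of its most 5' one. Kat6b encodes a histone acetyltransferase, and Aktip a protein of vesicle transport. Anapc15, a subunit gene of the anaphase-promoting complex, had 120 and 124, and Stag1, a cohesin subunit gene, 114 and 124. Rbpj, the DNA-binding effector gene of Notch, had 116 and 120 at a start 124216 bp downstream, and Atf3, a stress-induced factor gene, 113 and 125 at 34699 bp. Dcun1d4 and Inip complete the 10, and all 10 were rich in CpG at the second promoter, as defined with the CpG ratios. They were chosen by signal rank, and CpG-rich second promoters had the higher median signal. Of all 369 genes open at a second promoter alone, 55.3% were CpG-rich at the strongest region. The most 5' start need not be the best supported one. It has support level 2 in Aktip and level 3 in Anapc15, and both genes have open downstream starts of level 1. The other genes were not compared in this respect. The genes with the most separate regions were Plec with 9, Dab2ip and Pde4d with 8 each, and Oxr1, Phf21a, Rbm47, Tbc1d14 and Tmcc3 with 7 each. Dab2ip, a Ras GTPase activator gene, reached 108 and 115, and Phf21a, a chromatin complex gene, 86 and 89, with no peak at the most 5' start of either. Oxr1 reached 92 and 95 at its strongest second promoter region and 85 and 88 at the most 5' start.

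In the 690 genes open at both, the second promoter was more often the weaker one. Ranked by percentile within each replicate's peaks, the strongest second promoter region stood higher than the strongest region of the most 5' start in 42.5% of genes in replicate 1 and 38.7% in replicate 2. It was higher in both replicates in 239 genes and lower in both in 360, and 91 genes differed between replicates or were tied. The median percentile difference was -3.67 in replicate 1 and -4.34 in replicate 2, and the differences of the replicates had a Spearman correlation of 0.908 across these genes, which are not independent replicates. In the 213 of these genes with a single downstream start, where no strongest start is chosen among several, 36.2% stood higher at the second promoter. The signal had a median of 68.5 and 79.5 at second promoters and of 82 and 93 at most 5' starts.

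Among the largest differences in favour of the second promoter were those in Hnrnpf, Pwp1, Dlgap4, Tmcc3, Egf, Neu2, Sirt1, Pfkm and Atp2c1. Hnrnpf, an RNA-binding protein gene, had 111 and 123 at the second promoter, which lies within 1 kb of a non-coding gene's start, and 16 and 15 at the most 5' start. Egf, the epidermal growth factor gene, had 85 and 92 at the second promoter and 33 and 33 at the most 5' start. Sirt1, a deacetylase gene, had 97 and 97 at the second promoter and 30 and 41 at the most 5' start, and Pfkm, the muscle phosphofructokinase gene, 77 and 91 at the second promoter and 31 and 38 at the most 5' start. The second promoter of Neu2 lies within 1 kb of another protein-coding gene's start, and that of Dlgap4 within 1 kb of a non-coding gene's start. The largest differences the other way were in Ep400, Ube3a, Msh3, Brca1, Magi1, Btbd11, Maml3, Btbd8, Pnpla6 and Gdap2. Ep400, a chromatin remodeller gene, had 27 and 35 at the second promoter and 118 and 133 at the most 5' start. Brca1, a DNA repair gene, had 28 and 37 at the second promoter and 107 and 114 at the most 5' start. The second regions of Ep400, Msh3, Brca1, Pnpla6 and Gdap2 lie in coding exons at starts with an incomplete 5' end.

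**Figure D4:**
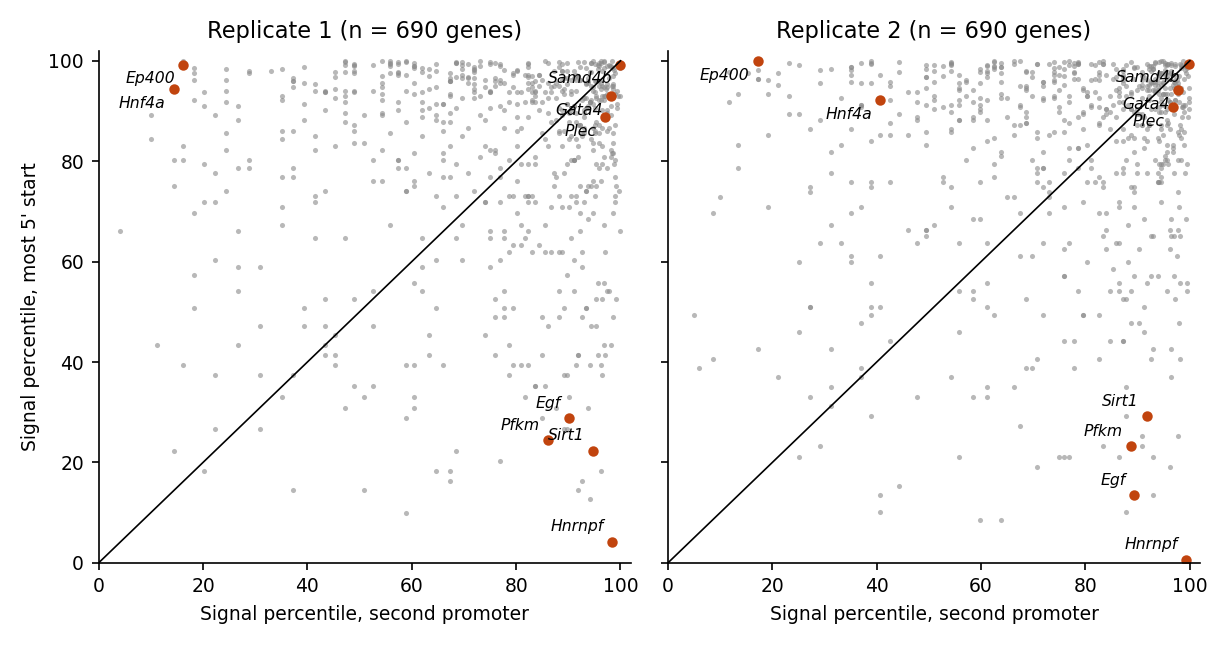
Percentile of peak signal within each replicate at the strongest second promoter region (horizontal axis) and at the most 5' start (vertical axis) of 690 genes open at both, with named genes in red and the line of equal rank in black. Points above the line are genes stronger at the most 5' start; the second promoter ranks higher in 42.5% of genes in replicate 1 and 38.7% in replicate 2.

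Second promoters lay between most 5' starts and regions without an annotated start in strength, width and base composition. The median signal was 59 in replicate 1 and 70 in replicate 2 at second promoters, against 75 and 86 at most 5' starts and 47 and 58 at regions without a start. The hotspots around them, the wider stretches of raised cleavage, had a median width of 383 bp in replicate 1 and 425 bp in replicate 2, against 708 and 810 bp at most 5' starts and 258 and 278 bp at regions without a start. The median GC content of the 150 bp at the centre was 58.7%, against 66.0% at most 5' starts and 49.3% at regions without a start. The CpG ratio is the observed number of CG dinucleotides over that expected from the C and G content, and its median was 0.510 at second promoters, 0.802 at most 5' starts and 0.230 at regions without a start. Signal ranks of the replicates had a Spearman correlation of 0.931 over the 1799 regions and 0.956 over the 3818 at most 5' starts.

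Taking a CpG ratio of at least 0.6 with a GC content of at least 50% as CpG-rich, 716 of 1799 second promoter regions were CpG-rich, or 39.8% (37.6 to 42.1%), against 74.1% at most 5' starts and 5.45% at regions without a start. CpG-rich second promoters had a median signal of 72 and 81.5 and CpG-poor ones of 54 and 65 in replicates 1 and 2. At most 5' starts the same classes had 81 and 92 for CpG-rich and 56 and 68 for CpG-poor regions. The gap in signal between second promoters and most 5' starts was thus smaller within each class than across all regions, in both replicates. The hotspot was still narrower at second promoters within a class, with medians of 537.5 and 585.5 bp against 754 and 858 bp at most 5' starts for CpG-rich regions, and 318 and 348 bp against 522 and 564 bp for CpG-poor ones.

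The CpG class of the second promoter went with whether the most 5' start was open and with which promoter ranked higher. In the 690 genes open at both, 343 joined a CpG-poor second promoter to a CpG-rich most 5' start, 174 were CpG-rich at both, 99 CpG-poor at both, and 74 joined a CpG-rich second promoter to a CpG-poor most 5' start. The most 5' start was thus CpG-rich in most genes of either second promoter class, and these counts do not show that the classes of the 2 promoters are linked. The strongest second region was CpG-rich in 204 of the 369 genes open at a second promoter alone, or 55.3% (50.2 to 60.3%), against 248 of the 690 open at both, or 35.9% (32.4 to 39.6%). Among genes open at both, the second promoter ranked higher in 139 of 248 genes where it was CpG-rich, or 56.0% (49.8 to 62.1%), and in 141 of 442 where it was CpG-poor, or 31.9% (27.7 to 36.4%). The 172 regions at starts with an incomplete 5' end alone had a median CpG ratio of 0.250, against 0.545 for the other 1627.

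**Figure D5:**
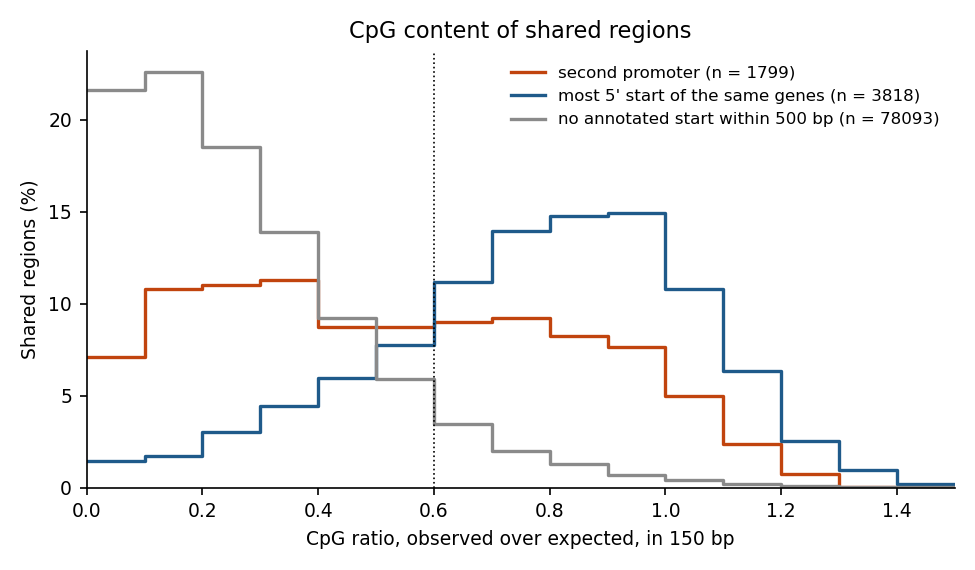
Share of regions (%, vertical axis) by CpG ratio in the central 150 bp (horizontal axis, bins of 0.1, no unit) for 1799 second promoters, 3818 regions at most 5' starts and 78093 regions without an annotated start, with a dotted line at 0.6. The second promoters spread across low and high ratios (median 0.510), whereas most 5' starts centre higher (0.802) and regions without a start lower (0.230).

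Short strings known as core promoter or factor motifs were searched on both strands in the central 150 bp, and a match is a description of the letters only. The GC box GGGCGG, which itself holds a CG, was present in 32.4% of second promoters, against 51.9% of most 5' starts, 7.81% of regions without a start and 16.4% of all shared regions. It was present in 58.1% of CpG-rich and 15.3% of CpG-poor second promoters. The AP-1 string TGANTCA was found in 7.89% of second promoters, against 3.04% of most 5' starts, 14.6% of regions without a start and 12.1% of all shared regions. The GATA string AGATAA was found in 4.50%, against 1.83, 10.7 and 8.82% of the same sets. In CpG-poor second promoters AP-1 reached 11.2% and GATA 6.65%, and in CpG-rich ones 2.93 and 1.26%. The TATA box TATAAA was found in 3.34% of second promoters, against 1.70% of most 5' starts, 6.68% of regions without a start and 5.72% of all shared regions. The CCAAT box CCAAT was found in 324 of 1799 second promoters, against 23.3% of most 5' starts, 16.6% of regions without a start and 17.8% of all shared regions. None of these strings contains another. For each of these strings the second promoters thus lay between the most 5' starts and the regions without a start. For CCAAT their interval (16.3 to 19.9%) includes the share of regions without a start. The sets differ in their mix of CpG classes. At CpG-rich and CpG-poor most 5' starts the GC box was found in 62.2 and 22.5%, AP-1 in 1.98 and 6.07%, and GATA in 0.990 and 4.25%. The TATA box was found there in 0.813 and 4.25%, against 1.26 and 4.71% of CpG-rich and CpG-poor second promoters.

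At the limits of the rule, the second promoter nearest to the 10 kb limit was in Med15, 10011 bp downstream with 95 and 109, and the same region lies at starts 9994 and 9991 bp downstream. Slc3a2 followed at 10013 bp with 89 and 107. At the 500 bp limit, the region of Cacna1e (500 bp away, 26 and 41) was just inside. A region 502 bp from a start of St5 (102 and 108) and one 502 bp from a further start of Runx2 (49 and 58) were just outside.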

How the data were processed

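DNase-seq of newborn mouse stomach was analysed from 1 peak list and 1 hotspot list per replicate on build mm10. Per the deposited file lists, the calls of a replicate rest on its filtered alignments alone, without pooling. The deposited peaks carry a signal of whole numbers from 2 or 3 to 149 on the chromosomes used, with no unit or scaling stated, and a −log10 q value, which ends at 100, is deposited for each hotspot. Neither the read aligner nor the program that called peaks, nor any threshold, is given in the sources used here.

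Peaks on the 19 autosomes, X and Y were kept. A start counted as open when a shared region lay within 500 bp, and a region took the highest signal of its peaks in each replicate. Protein-coding transcripts of 21853 protein-coding genes in GENCODE M21 gave 54361 starts. Percentiles are ranks within each replicate's peaks. Sequences came from RefSeq GRCm38.p6 through pysam 0.24.0, and tables were computed with Python 3.11.15, pandas 2.3.3 and numpy 2.4.6. The steps were tested on simulated intervals.

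With 1 group there is no test between groups. Shares carry 95% Wilson intervals. Named genes are those with the highest second promoter ranks, across all genes, by list and among genes without a most 5' peak, those with the most regions, those with the largest rank differences, and those at the limits. The members, lists and rules were chosen with earlier results of these data known. Some items that these rules name are not reported here.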

Additional observations from a re-analysis of the deposited data

How the results depend on the processing

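The count of regions stayed within 1.5 times the value given under all alternatives except transcripts of support level 1, which left 702, because fewer starts are used. From 1 replicate alone it was 2119 to 2332. The share of downstream starts that were open was 25.3% within 250 bp, 32.8% within 1000 bp, 29.2% with starts 20 kb apart, 22.1% with the stronger 50% of peaks, 27.2% with an overlap of 50%, 39.3% for complete 5' ends, 35.6% for support level 1, 26.4% without other genes' starts and 31.0 to 31.9% with 1 replicate. The share of genes was 25.5, 32.1, 29.4, 22.1, 27.2, 38.8, 36.1, 26.4 and 31.0 to 31.9% in the same order. Genes open at the second promoter and not at the most 5' start numbered 150 with support level 1, and 370 to 374 with 1 replicate. Among genes open at both, the share ranking higher at the second promoter was 36.9% within 1000 bp, 44.3% for complete 5' ends, 43.3% for support level 1 and 36.4 to 40.3% with 1 replicate, and it stayed under 50% in each of these. The median CpG ratio was 0.547 within 250 bp, 0.446 within 1000 bp, 0.486 with starts 20 kb apart, 0.576 with the stronger peaks, 0.543 for complete 5' ends, 0.532 for support level 1, 0.480 without other genes' starts and 0.485 to 0.487 with 1 replicate. The cause was not tested where fewer starts, peaks or bases do not set the value by construction. No paired analysis was possible because there is only 1 group. Depth is unknown, so a start without a shared region is not shown to be closed, and accessibility does not show that a promoter was transcribed. The signal has no stated unit, and both libraries name the same donor.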

Other observations

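Genes without an open second promoter mostly lacked any peak there. Of 2702 such genes, 2469 had a peak within 500 bp of a downstream start in neither replicate, 92 had one in replicate 1 only and 122 in replicate 2 only. On chromosome X, 31 of 126 genes had an open second promoter, or 24.6% (17.9 to 32.8%), against 1028 of 3629 on the autosomes, or 28.3% (26.9 to 29.8%), and these intervals overlap. Second promoter regions that overlapped a hotspot at the upper limit of the −log10 q value numbered 1079 in replicate 1 (60.0%) and 1169 in replicate 2 (65.0%), against 78.2 and 82.5% of regions at most 5' starts. A CTCF consensus string was found in 3.28% of second promoters, 2.15% of most 5' starts and 10.9% of regions without an annotated start. The ETS string CCGGAAGT was found in 1.45% of second promoters, 3.54% of most 5' starts and 0.402% of regions without a start.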
